A study of Mus musculus with 6 samples.

Results

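Wnt signalling genes were examined in cultured mouse cardiac fibroblasts after knockdown of Sipa1. The members were the table's genes named as Wnt ligands, Frizzled receptors, Sfrp, Dkk and R-spondin proteins. Listed symbols were added for co-receptors, other antagonists, secretion factors, the destruction complex, beta-catenin, TCF/LEF factors and receptor ligases. The rule used names only and no measured value, but it was chosen with earlier results of these data known. It found 44 of the 17525 genes in the table. A further 18 mouse genes that fit the rule in RefSeq have no row and were not analysed here: Wnt1, Wnt3, Wnt3a, Wnt6, Wnt7b, Wnt8a, Wnt8b, Wnt9b, Wnt16, Rspo1, Rspo2, Rspo4, Dkk1, Dkk4, Sfrp5, Wif1, Rnf43 and Lef1. Every gene of the table has at least 1 read in all 6 libraries.

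The 3 Sipa1 knockdown samples received a lentivirus with a short hairpin RNA against Sipa1 and an EGFP reporter, and the 3 scramble samples a scramble hairpin. All 6 came from hearts of C57BL/6 mice aged 6 weeks, were not passaged, and were given lipopolysaccharide (LPS, a component of the bacterial outer membrane) at 1 µg/ml from 72 h after the virus, for 24 h. No samples without LPS were analysed here. The labels leave unsaid whether samples within a group are separate cultures or separate animals. The p-values therefore reflect sample-to-sample spread that may be technical.

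Gene-assigned reads came to 37727929, 41273283 and 37309897 for knockdown 1 to 3, against 40323592, 30930998 and 41839742 for scramble 1 to 3. Sipa1 had 17.7, 20.0 and 15.2 CPM (counts scaled by the TMM-adjusted library size, in 1e6 reads) in knockdown libraries 1 to 3, against 41.0, 43.7 and 41.4 CPM in scramble libraries 1 to 3. The edgeR fit gave a log2 fold change, knockdown over scramble, of -1.25 (SE 0.075, adjusted p = 2.64e-11). An exact two-sided permutation test of the CPM values gave 0.1, the smallest p that 3 against 3 allows. Of the 8 fibroblast markers, all were present, with summed levels of 21150 to 23340 CPM in knockdown and 21490 to 24400 CPM in scramble. Of these 8, 3 fell and 0 rose (37.5% called, against 32.2% of all genes tested). The falls were Tcf21 (85.1 CPM in knockdown, 153 CPM in scramble, log2 -0.84), Pdgfra (-0.30) and Dcn (-0.18). Of the 13 mesothelial and epicardial markers 12 had a row, and 10 of these rose and 0 fell (83.3% called, against 32.2% of all genes tested). This list, like the other marker lists, was chosen with earlier results of these data known. Their summed levels were 229 to 243 CPM in knockdown and 102 to 112 CPM in scramble. Cdh1 was the marker of that list without a row. Wt1 (2.55 CPM in knockdown, 1.99 CPM in scramble) and Krt19 did not pass. Macrophage markers (8) summed to 152 to 156 CPM in knockdown and 130 to 145 CPM in scramble. Of these, Csf1r alone rose (29.74 CPM in knockdown, 17.02 CPM in scramble, log2 0.80), and the other 7 did not pass. Mural markers (6) summed to 444 to 467 CPM in knockdown and 536 to 571 CPM in scramble. The endothelial sums (9 markers) overlapped between the groups. Of these markers Kdr (log2 0.56) and Emcn (0.24) rose, Tek (-0.44) fell, and the other 6 did not pass. That is 33.3% called, against 32.2% of all genes tested. Cardiomyocyte markers (4) summed to 25.5 to 32.7 CPM in knockdown and 20.7 to 22.4 CPM in scramble, where Tnnt2 alone rose (0.44) of the 3 tested. Schwann cell markers (4) summed to 11.8 to 12.7 CPM in knockdown and 14.35 to 15.5 CPM in scramble, where S100b fell (-1.27) and the other 3 did not pass. In such bulk samples, a change in the number of cells of a type and a change in RNA per cell cannot be told apart.

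Wnt proteins are secreted, lipid-modified signals. Porcupine (Porcn) attaches the lipid and Wntless (Wls) carries the ligand to the cell surface, where it binds Frizzled receptors together with Lrp5 or Lrp6. Without a ligand, a complex of axin, Apc and the kinase Gsk3b marks beta-catenin (Ctnnb1) for destruction. With one, beta-catenin accumulates and works with TCF/LEF factors at target genes, among them Axin2 and Notum, which feed back on the signal. Ror1, Ror2 and Ryk receive Wnts in branches that do not need beta-catenin. Sfrp proteins and Frzb trap ligands, Dkk1 and Dkk2 bind Lrp5 and Lrp6, and Notum strips the lipid off. In the heart this pathway is known from epicardial development and from the fibroblast response to injury.

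Wnt7a and Dkk2 had the largest rises, Wnt10b and Wnt2b the largest falls, and Fzd1 the fall with the smallest adjusted p, so their start regions are shown, each from 250 bases before to 50 after the annotated start (RefSeq, GRCm38.p6, read 5′ to 3′ on the gene's strand). They lie at chr6:91411304-91411603 (minus strand), chr3:132085042-132085341 (plus), chr15:98778101-98778400 (minus), chr3:104961660-104961959 (minus) and chr5:4758167-4758466 (minus), in the order below. Capitals mark the TCF/LEF core letters CTTTGA on either strand. Only these letters were searched, and other forms of the TCF/LEF core were left unmarked.
Wnt7a: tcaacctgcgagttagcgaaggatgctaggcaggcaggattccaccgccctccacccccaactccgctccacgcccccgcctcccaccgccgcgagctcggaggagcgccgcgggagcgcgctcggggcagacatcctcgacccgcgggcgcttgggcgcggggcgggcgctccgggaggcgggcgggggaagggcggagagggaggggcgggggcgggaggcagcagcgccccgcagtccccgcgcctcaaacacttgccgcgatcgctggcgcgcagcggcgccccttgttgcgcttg
Dkk2: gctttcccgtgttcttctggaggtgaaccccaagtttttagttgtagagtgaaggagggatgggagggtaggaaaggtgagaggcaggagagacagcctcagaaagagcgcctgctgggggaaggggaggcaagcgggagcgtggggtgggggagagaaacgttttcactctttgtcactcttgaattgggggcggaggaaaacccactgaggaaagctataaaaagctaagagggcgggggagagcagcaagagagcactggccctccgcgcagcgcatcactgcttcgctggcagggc
Wnt10b: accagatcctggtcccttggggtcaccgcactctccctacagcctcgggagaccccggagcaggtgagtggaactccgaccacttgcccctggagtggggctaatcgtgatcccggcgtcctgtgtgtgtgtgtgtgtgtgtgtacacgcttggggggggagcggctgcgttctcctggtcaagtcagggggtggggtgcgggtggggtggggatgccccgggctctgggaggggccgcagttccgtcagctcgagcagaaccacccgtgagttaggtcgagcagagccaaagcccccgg
Wnt2b: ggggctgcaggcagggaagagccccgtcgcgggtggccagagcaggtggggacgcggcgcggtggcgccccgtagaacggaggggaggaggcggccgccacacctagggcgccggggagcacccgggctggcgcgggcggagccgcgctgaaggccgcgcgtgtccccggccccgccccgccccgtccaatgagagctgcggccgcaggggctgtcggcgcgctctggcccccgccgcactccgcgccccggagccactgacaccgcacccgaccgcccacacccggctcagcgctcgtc
Fzd1: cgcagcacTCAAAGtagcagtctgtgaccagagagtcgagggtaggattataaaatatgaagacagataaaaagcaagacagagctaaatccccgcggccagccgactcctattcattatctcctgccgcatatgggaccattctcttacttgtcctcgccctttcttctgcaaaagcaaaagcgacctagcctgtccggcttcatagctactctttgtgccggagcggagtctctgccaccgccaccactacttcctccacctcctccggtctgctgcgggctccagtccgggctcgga

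The RefSeq promoter table held 33 promoters, of 27 of the 44 members. CTTTGA stood in 6 of the 33 (Frzb, Fzd1, Gsk3b, Ror1, Wnt11, Wnt5b), against 16.0% of all 32851 promoters of this length. In Fzd1, which fell, it began at -242 relative to the start. The AP-1 letters TGANTCA stood in 2 of the 33 (7.81% of all), and those of the E-box CACGTG in 2 (7.15% of all). The NF-kappaB letters GGGA and TTCC, with 2 free bases between them, stood in 0 of the 33 (1.47% of all). A shorter form, GGANTTTCC, chosen after that count was seen and overlapping the first, stood in 1, of Wnt5b (1.25% of all). The GC box letters GGGCGG, also on either strand, stood in 27 of the 33, against 35.7% of all, and the median GC content was 70.0% in the members' promoters and 52.7% in all. The GC box was found 6 times in the Wnt7a promoter, which had 76.0% GC and 42 CpG pairs, 2 times in that of Dkk2 and 4 times in that of Wnt2b, and it was not found in those of Wnt10b and Fzd1. These letter matches are descriptions of the windows and were not tested for binding.

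Wnt7a and the antagonist Dkk2 rose most, while the receptor Fzd1, the antagonist Frzb and the ligands Wnt2b and Wnt10b fell in Sipa1 knockdown cells. Beta-catenin (log2 -0.04) and the co-receptor Lrp6 (log2 -0.03) did not pass the test. Of the 44 members 43 passed the expression filter, and Fzd10, with 2 to 9 reads a library, did not. In the edgeR quasi-likelihood test, 7 of the 43 rose and 12 fell (adjusted p under 0.05), 44.2% in all. Among all 15954 genes tested the share was 32.2%, with 16.4% that rose and 15.8% that fell. The median log2 fold change was -0.04 over the members and -0.001 over all genes, and the median size of a change was 0.235 over the members and 0.164 over all genes. At least 2-fold changes were found in 5 of the 43 members (11.6%), against 2.02% of all genes. Under 100 reads in every library were counted for 13 of the 44 members, and Wnt10b, Wnt2b and Notum of those 5 were among them. The CPM values of the groups did not overlap in 21 of the 43 members, against 43.6% of all genes tested.

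**Figure D1:**
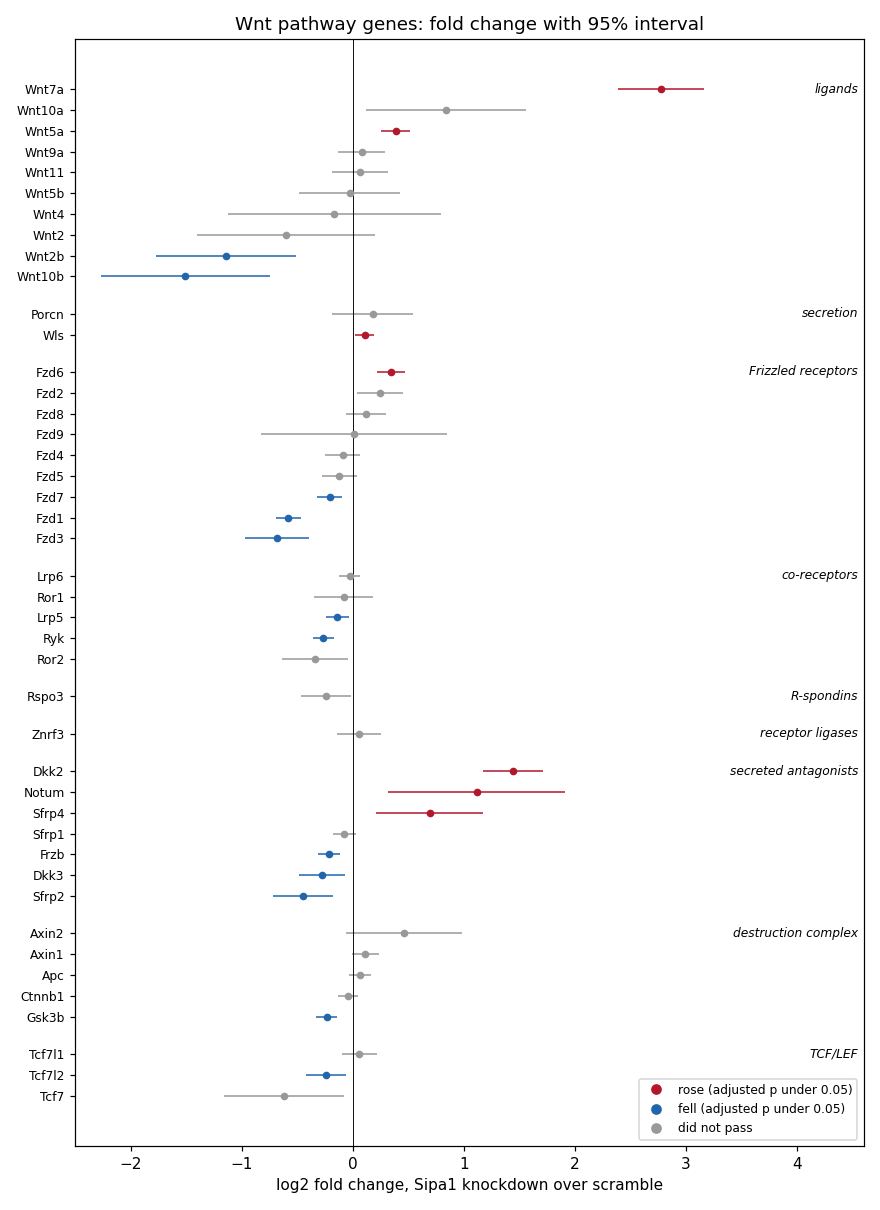
Log2 fold change (x axis, knockdown over scramble) of the 43 tested members, grouped by role, with the 95% interval of the edgeR fit as a bar. Red points rose, blue points fell and grey points did not pass the threshold. Wnt7a at 2.78 lies farthest from 0, and Ctnnb1 and Lrp6 lie near 0.

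Length-scaled levels differed widely between members. In the authors' FPKM (fragments scaled by transcript length and depth), Ctnnb1 was highest with 174 ± 2.10 in knockdown and 179 ± 2.21 in scramble (SD, n = 3 each). Frzb followed with 113 ± 6.86 in knockdown and 131 ± 2.66 in scramble, and Wls with 66.6 ± 2.69 in knockdown and 61.9 ± 2.52 in scramble. Sfrp1 had 49.1 ± 3.27 FPKM in knockdown and 51.7 ± 2.51 in scramble. The summed FPKM of the 7 antagonists was 161 to 182 in knockdown and 189 to 198 in scramble, and that of the 10 ligands 11.5 to 11.9 in knockdown and 8.70 to 9.35 in scramble.

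**Figure D2:**
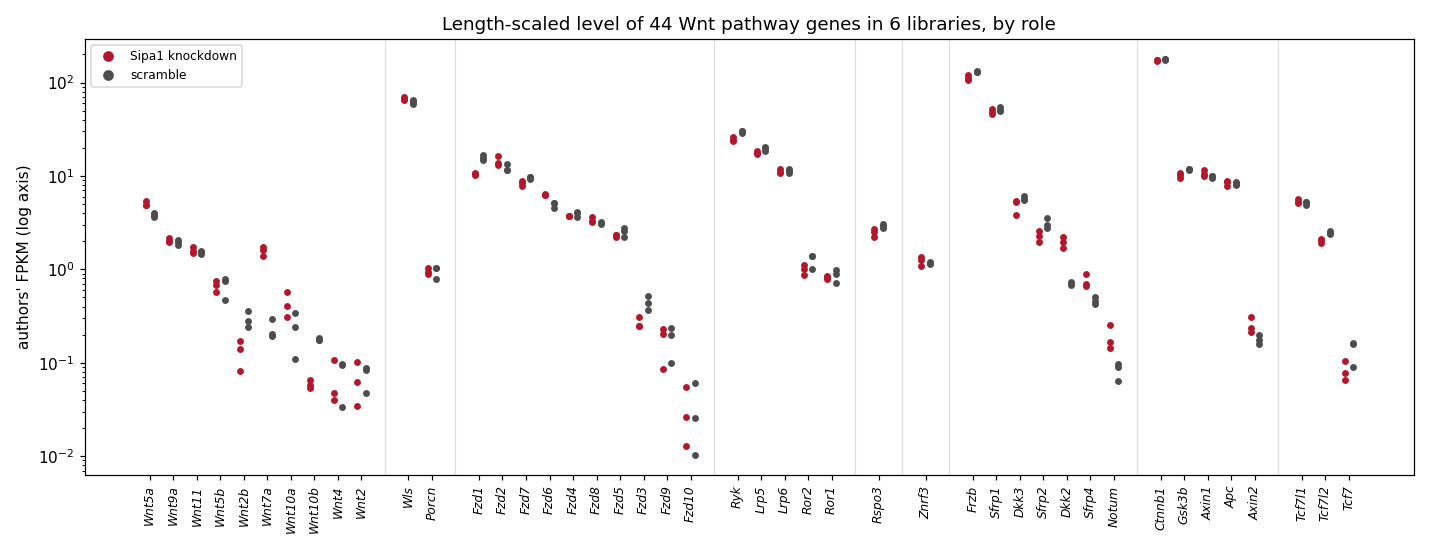
The authors' FPKM (y axis, log scale) of all 44 members in each of the 3 knockdown (red) and 3 scramble (grey) libraries, ordered by role and by level in scramble. Ctnnb1, Frzb, Wls and Sfrp1 stand at the top, and Fzd10 at the bottom.

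Among the ligands Wnt7a, known for limb patterning and for signalling to brain endothelium, rose most. It had 221, 203 and 235 reads in knockdown libraries 1 to 3, against 28, 34 and 31 reads in scramble libraries 1 to 3, or 5.88, 4.96 and 6.26 CPM in knockdown against 0.702, 1.07 and 0.749 CPM in scramble. Every knockdown library stood far above every scramble library. This is a 6.86-fold rise (log2 2.78, SE 0.19, edgeR adjusted p = 1.10e-10), and it passed in all 17 alternatives. Wnt7a (chromosome 6, 91363981 to 91411353) shares no annotated exon with another gene. Its share of the summed ligand FPKM was 13.6% ± 1.81 in knockdown and 2.57% ± 0.744 in scramble (SD, n = 3 each). The rise in Wnt7a stood beside that of the mesothelial and epicardial marker list, in which 10 of 12 genes rose and the summed level was 229 to 243 CPM in knockdown and 102 to 112 CPM in scramble. Of that list, Lrrn4 averaged 146 CPM in knockdown and 54.2 CPM in scramble, and Upk3b 34.9 CPM in knockdown and 17.5 CPM in scramble. That list was chosen with earlier results of these data known, and the part of mesothelial and epicardial cells in the Wnt7a result was not tested.

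Wnt5a, the main ligand of the beta-catenin-independent branches, was the most abundant ligand and also rose. It stood at 30.5, 33.5 and 30.6 CPM in knockdown libraries 1 to 3 and at 24.7, 22.6 and 24.9 CPM in scramble libraries 1 to 3, with no overlap (log2 0.39, SE 0.063, edgeR adjusted p = 4.98e-05). Its exons overlap an antisense gene, Gm2670, and the sources used here do not state the strand setting of the counting, so reads of both may be mixed. The same holds for each opposite-strand overlap named below, and for Fzd5, Rspo3, Tcf7l1 and Wnt11. Wnt2b and Wnt10b, ligands that act through beta-catenin, fell, at few reads. Wnt2b had 22, 29 and 13 reads in knockdown against 46, 31 and 62 in scramble (0.547 ± 0.184 CPM in knockdown and 1.21 ± 0.266 CPM in scramble, SD, n = 3 each). In CPM, all 3 knockdown libraries lay below the scramble range (log2 -1.14, SE 0.30, edgeR adjusted p = 0.00531). Wnt10b had 9, 8 and 8 reads in knockdown and 24, 21 and 25 reads in scramble (log2 -1.51, SE 0.37, edgeR adjusted p = 0.00269). Its level is under 1 CPM in every library, and it is named after its values were seen, as the largest fall.

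The other 6 ligands did not pass. Wnt9a (log2 0.08, SE 0.10) and Wnt11 (0.07, SE 0.12) followed Wnt5a in FPKM in scramble. Wnt5b stood at -0.03 (SE 0.22) and Wnt4 at -0.17 (SE 0.46). Wnt2, a ligand of the developing heart and lung, had 9, 12 and 12 reads in knockdown and 13, 13 and 23 in scramble, or 0.240, 0.293 and 0.320 CPM in knockdown against 0.326, 0.409 and 0.556 CPM in scramble. Its groups did not overlap, but the log2 change of -0.60 (95% interval -1.40 to 0.20) did not pass (edgeR adjusted p = 0.262). Wnt10a (0.84, SE 0.35, edgeR adjusted p = 0.0696) had an adjusted p of 0.0293 when scramble replicate 1 was left out, and 0.0293 to 0.305 over its alternatives. By FPKM the ligand order in knockdown was Wnt5a (5.04 ± 0.307), Wnt9a (2.06 ± 0.112), Wnt11 (1.60 ± 0.123), Wnt7a (1.58 ± 0.182) and Wnt5b (0.669 ± 0.0920), where Wnt11 and Wnt7a did not differ beyond their spread. In scramble it was Wnt5a (3.82 ± 0.225), Wnt9a (1.95 ± 0.106), Wnt11 (1.53 ± 0.0603), Wnt5b (0.668 ± 0.169) and Wnt2b (0.292 ± 0.0606), with Wnt7a at 0.231 ± 0.0581 (SD, n = 3 throughout).

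**Figure D3:**
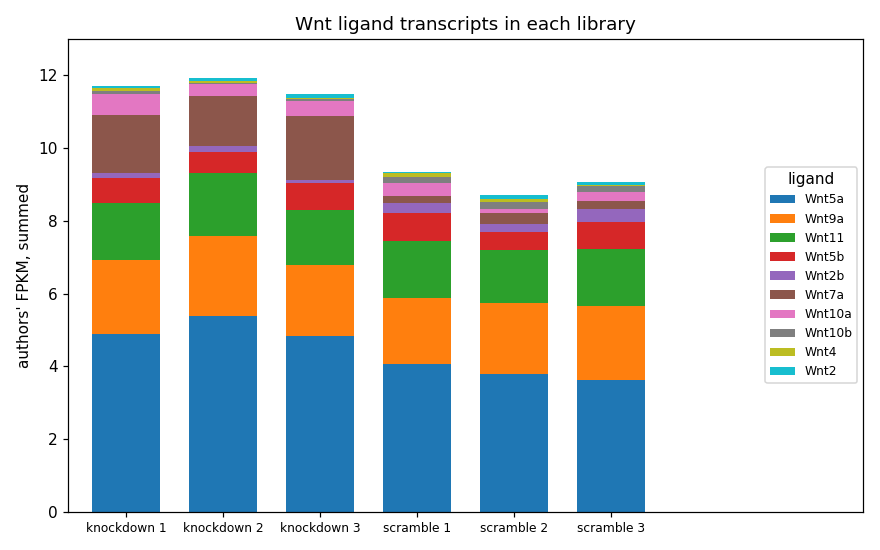
Summed FPKM (y axis, the authors' values) of the 10 Wnt ligands as stacked bars, 1 bar a library, the 3 knockdown libraries left of the 3 scramble libraries. The Wnt7a segment is tall in every knockdown bar and thin in every scramble bar, and Wnt5a is the tallest segment in all 6.

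Of the secretion genes, Wls stood at 372, 388 and 372 CPM in knockdown libraries 1 to 3 and at 353, 347 and 351 CPM in scramble libraries 1 to 3. The groups did not overlap, yet the rise was small (log2 0.11, SE 0.041, edgeR adjusted p = 0.0477). That call was lost in 12 of 17 alternatives (range of adjusted p 0.0279 to 0.181). Among them were the fits without each library other than knockdown replicate 1 (0.0837 to 0.181). Porcn did not pass (log2 0.18, SE 0.18).

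Frizzled receptors moved in both directions, with 3 falling and 1 rising of 9 tested (44.4% called, against 32.2% of all genes tested). Fzd1, the most abundant in scramble by FPKM, stood at 53.2, 52.9 and 51.0 CPM in knockdown libraries 1 to 3, against 74.9, 75.1 and 85.3 CPM in scramble libraries 1 to 3. All knockdown libraries were lower (log2 -0.58, SE 0.054, edgeR adjusted p = 1.51e-08), which leaves 66.8% of the scramble level. Fzd3, known for axon guidance and planar cell polarity, had 3.67, 4.52 and 3.57 CPM in knockdown and 5.36, 7.30 and 6.36 CPM in scramble, also without overlap (log2 -0.69, SE 0.14, edgeR adjusted p = 5.10e-04). Fzd7 fell by 0.21 on the log2 scale (edgeR adjusted p = 0.00498), a call lost without knockdown replicate 3 (0.0532; range over its alternatives 0.00224 to 0.0532). Fzd6, which restrains the beta-catenin branch in several settings and acts in planar polarity, rose by 0.35 (SE 0.062, edgeR adjusted p = 1.39e-04), with means of 29.0 ± 0.414 CPM in knockdown and 22.8 ± 1.14 CPM in scramble (SD, n = 3 each). Its exons overlap the opposite-strand gene Gm26704.

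Fzd2 had 68.0, 56.5 and 54.4 CPM in knockdown against 48.3, 46.3 and 56.1 CPM in scramble, so that 1 knockdown library lay inside the scramble range. Its log2 change of 0.25 (edgeR adjusted p = 0.0741) passed with library size only (0.0366), with no filter (0.0492) and with the non-robust fit (0.0198). It also passed once scramble replicate 3 (0.00271) or knockdown replicate 3 (0.0214) was left out, and its alternatives spanned 0.00271 to 0.203. In knockdown Fzd2 had 14.4 ± 1.63 FPKM and Fzd1 10.5 ± 0.199 FPKM, while in scramble Fzd2 had 12.1 ± 1.11 FPKM and Fzd1 15.7 ± 1.08 FPKM (SD, n = 3 each). Fzd4 (-0.09, SE 0.075), Fzd5 (-0.12, SE 0.077), Fzd8 (0.12, SE 0.085) and Fzd9 (0.01, SE 0.40) did not pass.

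Co-receptors and alternative receptors included 2 falling and 0 rising of 5 (40.0% called, against 32.2% of all genes tested). Ryk, a pseudokinase that binds Wnts and the most abundant of this role by FPKM, stood at 88.9, 96.0 and 89.3 CPM in knockdown libraries 1 to 3 and at 113, 110 and 107 CPM in scramble libraries 1 to 3 (log2 -0.27, SE 0.045, edgeR adjusted p = 7.64e-05). Its groups did not overlap. Lrp6 had 114, 126 and 116 CPM in knockdown and 116, 124 and 123 CPM in scramble, and the groups overlapped (log2 -0.03, 95% interval -0.12 to 0.07). Lrp5 fell by 0.14 (edgeR adjusted p = 0.0314) with overlapping groups, and the call was lost in 8 of 17 alternatives. Among them were the fits without scramble replicate 1 (0.190), scramble replicate 3 (0.118), knockdown replicate 2 (0.0688) and knockdown replicate 3 (0.136), with a range of 0.00375 to 0.190. Ror1 stood at -0.08 (SE 0.13). Ror2, a receptor of Wnt5a, did not pass (log2 -0.34, SE 0.14, edgeR adjusted p = 0.0737). The adjusted p over its alternatives spanned 0.00997, reached when scramble replicate 2 was left out, to 0.273, and it was 0.0463 when knockdown replicate 1 was left out.

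R-spondins amplify the signal by keeping the receptor ligases Znrf3 and Rnf43 from removing Frizzled proteins. Rspo3 had 6.95, 7.30 and 6.07 CPM in knockdown and 8.57, 7.49 and 8.00 CPM in scramble, with no overlap (log2 -0.24, 95% interval -0.47 to -0.02, edgeR adjusted p = 0.0916). Znrf3 had 330, 430 and 371 reads in knockdown and 367, 286 and 405 reads in scramble, and the CPM values overlapped (log2 0.06, SE 0.096). Neither passed the threshold.

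Of 7 secreted antagonists 3 rose and 3 fell (85.7% called, against 32.2% of all genes tested). Dkk2, which binds Lrp5 and Lrp6, had 319, 290 and 353 reads in knockdown libraries 1 to 3 and 124, 91 and 132 reads in scramble libraries 1 to 3, or 8.49, 7.08 and 9.40 CPM in knockdown against 3.11, 2.86 and 3.19 CPM in scramble. The groups stood well apart (log2 1.44, SE 0.13, edgeR adjusted p = 1.24e-08), a 2.71-fold rise that passed in all alternatives. Sfrp4, a ligand trap, rose, at few reads, with 51, 73 and 53 in knockdown and 35, 32 and 39 in scramble, or 1.36, 1.78 and 1.41 CPM in knockdown against 0.877, 1.01 and 0.943 CPM in scramble. Its groups did not overlap (log2 0.69, SE 0.23, edgeR adjusted p = 0.0257). That call was lost with DESeq2 (0.0552) and when scramble replicate 1 (0.0867), scramble replicate 3 (0.064) or knockdown replicate 2 (0.119) was left out, and its alternatives spanned 0.0200 to 0.119.

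Notum had 30, 18 and 19 reads in knockdown and 8, 9 and 13 in scramble, without overlap (log2 1.12, SE 0.38, edgeR adjusted p = 0.0293). The call was lost with DESeq2 (0.0806), on unfiltered FPKM (0.0552), and when scramble replicate 1 (0.127) or knockdown replicate 1 (0.168) was left out. Its alternatives spanned 0.0257 to 0.168. Notum too has overlapping antisense genes (Notumos and Myadml2os). As with Wnt7a, the part of the mesothelial and epicardial markers in the rises of Dkk2, Sfrp4 and Notum was not tested.

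The 3 falling antagonists had higher mean FPKM than the 3 rising ones in both groups. Frzb, a trap that is the most abundant antagonist by FPKM, stood at 377, 396 and 350 CPM in knockdown libraries 1 to 3, against 438, 418 and 450 CPM in scramble libraries 1 to 3 (log2 -0.22, SE 0.047, edgeR adjusted p = 0.00102). All knockdown libraries were lower, by a small amount. Sfrp2 had 6.04, 4.49 and 5.14 CPM in knockdown and 8.27, 6.23 and 6.82 CPM in scramble, just without overlap (log2 -0.45, SE 0.13, edgeR adjusted p = 0.0110). The call was lost when scramble replicate 1 (0.108) or knockdown replicate 2 (0.0683) was left out, and its alternatives spanned 0.00435 to 0.108. Sfrp2 exons overlap the antisense gene Gm26771. Dkk3, a divergent family member, had 20.6, 20.6 and 14.8 CPM in knockdown and 22.0, 23.4 and 22.5 CPM in scramble. Knockdown replicate 3 was well below the other two (log2 -0.28, SE 0.098, edgeR adjusted p = 0.0400), and without it the adjusted p was 0.201 and the change -0.14. Leaving out any scramble library also lost the Dkk3 call (0.0722 to 0.106), with a range of 0.0114 to 0.201. Sfrp1 stood at 246, 260 and 228 CPM in knockdown and 254, 244 and 275 CPM in scramble, with overlap (log2 -0.08, 95% interval -0.18 to 0.03).

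**Figure D4:**
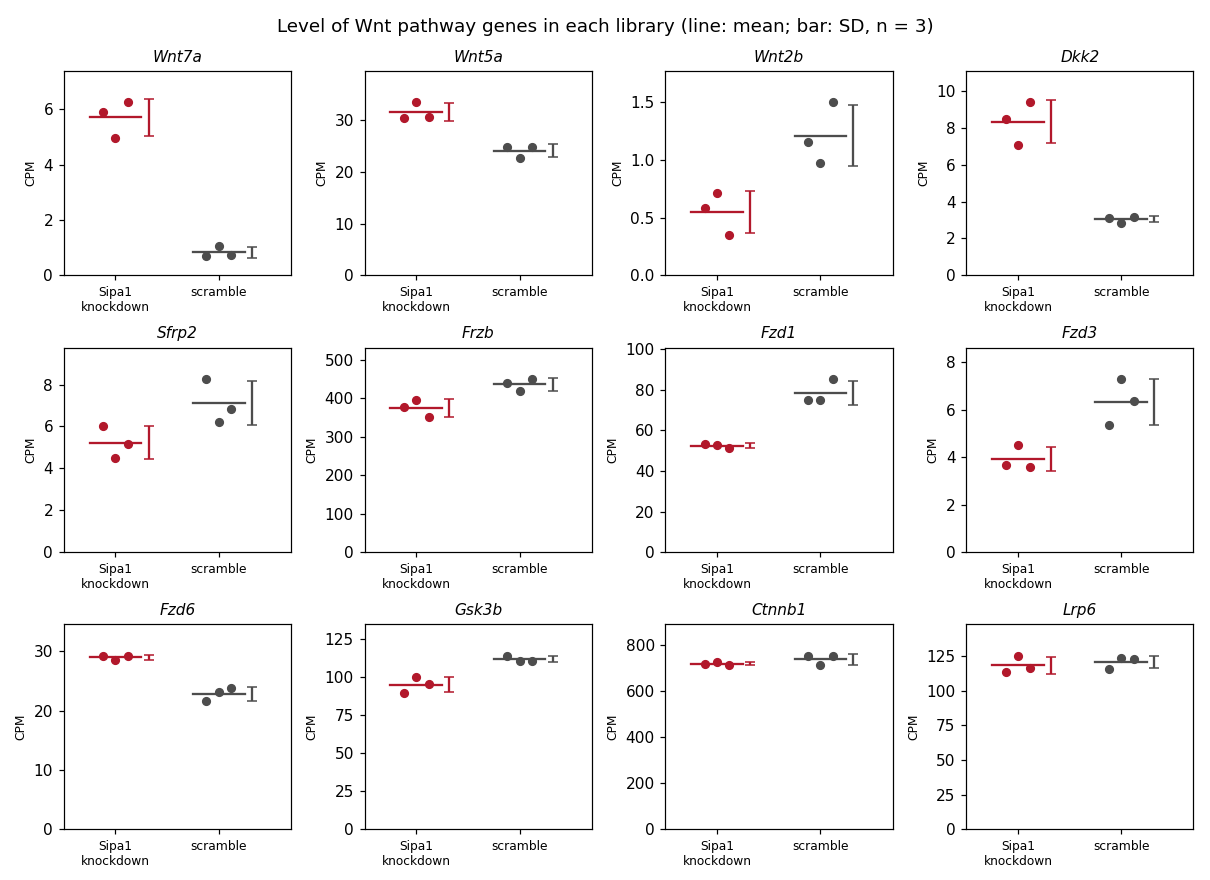
CPM (y axis, from 0) of 12 members in each library, with knockdown (red) left of scramble (grey), a line at the mean and a bar for the SD (n = 3). Wnt7a and Dkk2 show the widest gaps, Fzd1 and Fzd3 are lower in every knockdown library, and Ctnnb1 and Lrp6 overlap.

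In the destruction complex 1 of 5 genes fell and 0 rose (20.0% called, against 32.2% of all genes tested). Gsk3b stood at 89.9, 100 and 95.3 CPM in knockdown and at 114, 111 and 111 CPM in scramble, with no overlap (log2 -0.23, SE 0.046, edgeR adjusted p = 3.56e-04). Ctnnb1 had 717, 723 and 711 CPM in knockdown and 750, 710 and 752 CPM in scramble, with overlap (log2 -0.04, 95% interval -0.13 to 0.05). Its exons overlap the opposite-strand gene Ulk4. Axin2, the feedback gene widely used as a readout of beta-catenin signalling, had 40, 61 and 43 reads in knockdown and 39, 24 and 39 reads in scramble, or 1.07, 1.49 and 1.15 CPM in knockdown against 0.978, 0.755 and 0.943 CPM in scramble. Its groups did not overlap, but the log2 change of 0.46 (95% interval -0.06 to 0.98, edgeR adjusted p = 0.175) did not pass in any alternative. An antisense gene, Gm11670, overlaps its exons. Axin1 (0.11, SE 0.058) and Apc (0.06, SE 0.048) did not pass.

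The TCF/LEF factors were Tcf7l1, Tcf7l2 and Tcf7. Tcf7l1, mostly known as a repressor, was the most abundant by FPKM, with 18.7, 17.3 and 16.6 CPM in knockdown and 17.6, 15.6 and 17.2 CPM in scramble (log2 0.06, SE 0.076), and the groups overlapped. Tcf7l2 fell by 0.24 (SE 0.088, edgeR adjusted p = 0.0366), with 9.74 ± 0.552 CPM in knockdown and 11.5 ± 0.279 CPM in scramble (SD, n = 3 each). This was lost with DESeq2 (0.0509) and without any library except knockdown replicate 1 (0.0607 to 0.114), with a range of 0.0271 to 0.114. Tcf7 stood at -0.62 (SE 0.26, edgeR adjusted p = 0.0736), with 29 to 46 reads in knockdown and 43 to 71 in scramble. Over its alternatives the adjusted p spanned 0.0235, with scramble replicate 3 left out, to 0.284, and it was 0.0399 with knockdown replicate 3 left out.

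Genes outside the naming rule that act in receptor complexes, in the cytoplasm or as nuclear co-factors were taken as a list of 62 tested genes, of which 19 fell and 9 rose (45.2% called, against 32.2% of all genes). Their median log2 change was -0.07, against -0.001 over all genes. Csnk1g2, a membrane-bound casein kinase that phosphorylates Lrp6, fell to 53.7 ± 4.73 CPM in knockdown, against 130 ± 2.70 CPM in scramble (SD, n = 3 each; log2 -1.28, SE 0.053, edgeR adjusted p = 5.26e-14). Daam1, a formin of the planar polarity branch, had 49.7, 52.6 and 50.5 CPM in knockdown and 110, 109 and 106 CPM in scramble (log2 -1.09, SE 0.046). Reck, which forms a receptor complex for Wnt7a and Wnt7b with Adgra2, had 47.6, 51.4 and 49.3 CPM in knockdown against 86.1, 81.8 and 83.8 CPM in scramble (log2 -0.76, SE 0.048, edgeR adjusted p = 3.90e-11). Reck was lower, and Wnt7a higher, in all 3 knockdown libraries than in any scramble library. Adgra2, named here after its values were seen, fell by 0.21 with overlapping groups (edgeR adjusted p = 0.0110). The Dishevelled inhibitor Nkd2 fell by 0.51 on the log2 scale. Among the risers, the beta-catenin co-factors Pygo2 (0.46), Bcl9 (0.46) and Bcl9l (0.21) and the kinase gene Csnk1e (0.34) had the smallest adjusted p.

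Of 24 genes often used as beta-catenin targets, 9 fell and 5 rose (58.3% called, against 32.2% of all genes), with a median log2 change of -0.007, against -0.001 over all genes. Members of the naming rule that are also such targets are not among the 24. Of these, Dkk2 (1.44) and Notum (1.12) rose, and Axin2, Tcf7 and Znrf3 did not pass. Prickle1, which rose (0.47), and Nkd1 are counted in the preceding list of 62 genes as well. The falls with the smallest adjusted p were Vcan (-0.66), a matrix proteoglycan, Fst (-0.68), which binds activin, Jag1 (-0.59), a Notch ligand, and Tcf4 (-0.39), a helix-loop-helix factor that is not Tcf7l2. The rises were led by Ccn4 (0.24) and Ccn1 (0.17), both matricellular proteins, Ppard (0.31), a nuclear receptor, and Bambi (0.47), a pseudoreceptor of TGF-beta signalling. Bambi did not pass on FPKM values (0.432 to 0.490). Among genes widely taken as direct targets, Nkd1 (0.33, SE 0.20), Sp5 (0.38, SE 0.21) and Apcdd1 (0.28, SE 0.13) did not pass, and they are named after their values were seen. In CPM the groups overlapped for Nkd1 and did not for Sp5 and Apcdd1. Ccnd1 (-0.18, edgeR adjusted p = 0.00371) and Myc (-0.17, edgeR adjusted p = 0.00908) fell, and they too are named after their values were seen. Many genes of this list are also under the control of other pathways.

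A pair of 7-base words picked in an earlier scan of 3' UTRs on these same data were looked up in the longest annotated 3' UTR, of at least 50 bases, of each gene (GENCODE vM21). GCACAAC stood in 3 of 43 members, Fzd4, Tcf7 and Tcf7l2, against 4.95% of 13244 genes, and GTCGCCC in Wnt11 (1.42% of genes). Tcf7l2 fell, and Fzd4, Tcf7 and Wnt11 did not pass. Over all genes the median log2 change was -0.09 with GCACAAC and 0.01 without it, and 0.17 with GTCGCCC and 0.00 without it. Because both words were picked on these same data, these medians and the calls below are not a test of either word. In the other pathway lists GCACAAC stood in Tcf4 (log2 -0.39) and Ccnd1 (-0.18), which fell, and in Ctnnbip1 (0.08), which did not pass. GTCGCCC stood there in Nfatc1 (0.18), which did not pass. Neither word was found in the 3' UTRs of Wnt7a, Dkk2, Wnt5a, Fzd1, Fzd3, or Frzb.

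By the authors' deposited table, 42 of the 44 members have an adjusted p, of which 5 were higher and 11 lower in knockdown at an adjusted p under 0.05. These 16 were called in the same direction by edgeR, and the 3 called by edgeR alone were Tcf7l2, Notum and Sfrp4. The share of all genes under that threshold in the authors' values was not counted, so these member counts have no background beside them. The authors' deposited table gives 6.86 as the signed fold score of Wnt7a and 2.71 for Dkk2.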

How the data were processed

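Poly(A)-selected, stranded libraries of 6 samples were sequenced with paired reads, per the labels' protocols. Per the submitters' processing notes, the tools included HISAT2 and StringTie (version and role unstated) and the genome was mm10. The authors deposited 1 table, byte for byte the same for each sample, of raw read counts for 17525 genes, per the file headers. It also holds FPKM and TPM values, log2-scale normalized values, and comparison columns with a fold score, a test statistic, a baseline signal and p-values, all made by the authors with an unnamed tool.

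The count test was edgeR's (4.0.16, R 4.3.3) two-sided quasi-likelihood test between groups on all genes, with filterByExpr, TMM scaling and robust dispersions. Adjusted p is Benjamini-Hochberg over the 15954 genes kept, with a threshold of 0.05. Each SE comes from the fold change and its F statistic, and 95% intervals use the fit's degrees of freedom. Coordinates and promoters are RefSeq's (GRCm38.p6), matched by NCBI gene ID and symbol. The depth is 30930998 to 41839742 reads in genes. Replicates differed by more than counting noise in all pairs of a group (chi-square per gene 3.89 to 8.64). On simulated counts for this comparison over 15954 genes, 89.5% of 200 genes changed 1.5-fold were recovered, 98.5% at 2-fold and 97.5% at 3-fold, with 5.29% to 9.3% false calls. The 200 were drawn only from genes above a minimum expected count. The recovery rates therefore do not cover members at few reads, such as Wnt10b, Notum and Wnt2. In the data 5139 genes were called, far more than were changed in the simulation.

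Members, lists and named genes were chosen with earlier results of these data known. Values library by library are given for members past the threshold with a log2 change of at least 0.5 and 1 CPM, for the most abundant member of each role, and for a fixed set that includes Ctnnb1, Axin2, Lrp6, Wls, Wnt5a and Sfrp1. Other members given so were chosen after their values were seen. The lists contribute up to 4 rising and 4 falling genes with the smallest adjusted p. Alternatives were 2 other scalings (RLE, library size only), 2 other filters (none, or 1 CPM reached by 3 libraries), 3 other fits (DESeq2 1.42.0, voom in limma 3.58.1, non-robust edgeR), a replicate block, and leaving out each library. For FPKM, limma was run at pseudocounts of 1 and 0.1 where a group mean reached 0.5, and at 1 without that filter.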

Additional observations from a re-analysis of the deposited data

How the results depend on the processing

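Of the 19 called members, 11 kept their call in all of the alternatives that gave them a value and none changed sign, and 20 of the 24 others passed in none. Members that fell numbered 12, but 7 on log2(FPKM + 1) and 7 on log2(FPKM + 0.1), where 33 members were tested. On those settings Fzd3, Wnt2b and Wnt10b lay under the group-mean minimum of 0.5 and were not tested, and Dkk3 and Lrp5 did not pass. Unfiltered log2(FPKM + 1) gave 10 falling members. Genes of the signalling list that fell numbered 19, but 10, 10 and 11 on log2(FPKM + 1), log2(FPKM + 0.1) and unfiltered log2(FPKM + 1). The cause of the lower counts in the signalling list was not tested. Leaving out each library gave 8 to 13 falling and 5 to 7 rising members. The sign of 6 members that were not called turned. Fzd9 (0.01) was at -0.0337 with limma-voom, -0.0227 with the replicate block, -0.0063 on unfiltered FPKM and -0.26 to 0.33 with a library left out. Wnt5b (-0.03) was at 0.0041, 0.0198 and 0.0041 on the FPKM settings and -0.22 to 0.11 with a library left out. With a library left out, Lrp6 ranged from -0.0799 to 0.0007, Ror1 from -0.20 to 0.0074, Wnt4 from -0.69 to 0.0773 and Znrf3 from -0.0099 to 0.13. Same-numbered libraries did not deviate together (correlations -0.0101 to 0.00405), and none correlated best with its own number. With the replicate block 12 members fell and 8 rose, and Wnt10a passed (0.0302). Few reads limit Wnt10a, Wnt10b, Wnt2b, Notum, Wnt4, Wnt2 and Fzd9, whose SE was 0.30 or more.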
